A study of Mus musculus with 9 samples.

Results

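The genes of chromosomal DNA replication and deoxynucleotide supply were examined in RNA of mouse embryonic fibroblasts that carry the reprogramming factors in their label. They are 41 genes, chosen by symbol for their function, out of 54986 gene IDs in the files, and each symbol matched 1 gene ID. The set holds the MCM helicase and its loaders, the factors that activate it, the sliding clamp and clamp loader, the replicative polymerases with primase, RPA, the enzymes that finish Okazaki fragments, and the enzymes of deoxynucleotide supply.

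Primary mouse embryonic fibroblasts of strain C57BL/6, all labelled D4-OSKM-2ndMEFs, gave 9 libraries of total RNA. There were 3 libraries each of Zscan4f overexpression, Zscan4f3A overexpression and control, where control stands for titles that name no overexpressed gene and no empty vector. OSKM is the usual name for the reprogramming factors Oct4, Sox2, Klf4 and c-Myc, and all groups, control included, carry it. Neither the promoter behind the overexpression, the sequence of Zscan4f3A nor the meaning of D4 is given in the sources used here, and no label says whether replicates were cultured separately. All p-values therefore cover the variation among these libraries alone, and that may be technical.

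The amount of each gene's RNA was taken as TPM (transcript abundance corrected for gene length and scaled to the same total in every library). Zscan4f itself stood at 558 to 570.0 TPM with Zscan4f, at 654 to 836 TPM with Zscan4f3A and at 0 to 0.960 TPM in control. Aligned sequence was 7.48 to 8.39 gigabases with Zscan4f, 3.31 to 8.38 with Zscan4f3A, where replicate 3 was the shallowest library, and 6.60 to 8.26 in control. Of 9 fibroblast markers all passed the filter on low values, and their summed level was 12533 to 12696 TPM with Zscan4f, 13060 to 13297 with Zscan4f3A and 13080 to 13155 in control. Of these 9, at a limma adjusted p under 0.05, 6 fell and 2 rose with Zscan4f against control, and 5 fell and 2 rose against Zscan4f3A. Over all genes tested, 8.74% were called higher and 9.71% lower against control, and 7.48% and 7.64% against Zscan4f3A. Postn fell (log2 fold change -0.29, limma adjusted p = 1.5e-04), whereas Col1a2, the most abundant of the 9, rose against control (0.25, adjusted p = 2.7e-04). The summed level of 8 epithelial and keratinocyte markers was 207 to 214 TPM with Zscan4f, 88.3 to 96.2 with Zscan4f3A and 79.1 to 80.9 in control. Of these 8, at the same threshold, 6 were higher and 1 lower with Zscan4f against control, and 6 were higher and 0 lower against Zscan4f3A. The fibroblast and epithelial markers thus moved in the same libraries as the replication genes below, and their part in the results was not tested. Of 6 macrophage markers, Adgre1 and Ptprc lay at or below 0.0843 TPM in every library, while against control Cd68 rose with Zscan4f (log2 fold change 0.60, limma adjusted p = 0.0019) and Cd14 fell (-0.42, adjusted p = 0.044). The summed level was 23.9 to 26.1 TPM with Zscan4f, 17.9 to 19.6 with Zscan4f3A and 18.1 to 20.3 in control. The sum of 5 endothelial markers, 59.0 to 62.8 TPM with Zscan4f, 41.4 to 43.4 with Zscan4f3A and 39.7 to 42.7 in control, came mostly from Tek and Flt1, and the defining marker Cdh5 lay at or below 0.0496 TPM. The 5 erythroid markers summed to at most 1.97 TPM in any library. The part of the macrophage and endothelial lists in the results was not tested.

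Before a cell copies its DNA, the origin recognition complex with Cdc6 and Cdt1 loads rings of the MCM2 to MCM7 proteins onto origins. Cdc45 and the GINS complex turn these rings into moving helicases in S phase, and the polymerases follow, held on DNA by the PCNA clamp. The building blocks come from ribonucleotide reductase and from thymidylate synthesis and salvage. Transcription of many of these genes is known to rise at the G1 to S transition under E2F factors, so their level in a culture depends on how many cells are cycling. In bulk RNA, more cells in S phase and more RNA per cell cannot be told apart.

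With Zscan4f a minority of the replication and nucleotide genes rose against control, by small amounts, and most did not pass the test. Of the 41 members, 10 rose with Zscan4f and 0 fell (limma, Benjamini-Hochberg adjusted p under 0.05 over 15837 genes), against a background of 8.74% of all tested genes called higher and 9.71% called lower. At an unadjusted p under 0.05, 14 members were higher and 0 lower, where 15.0% and 16.1% of all genes were. The called members differed from control by 12.9% (Rrm1) to 61.4% (Gins1) of the mean TPM. The median log2 fold change was 0.16 over the 41 members and -0.00 over all genes tested, with 32 members above 0 and 9 below. In 18 members every Zscan4f library lay above every control library, which held for 19.0% of all genes, and in 0 members was the order reversed, which held for 19.2%. The count of 10 fell to 6 without control replicate 2 and to 6 without Zscan4f replicate 1.

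Against Zscan4f3A, 8 members were higher with Zscan4f and 0 lower, where 7.48% of all genes were called higher and 7.64% lower. At an unadjusted p under 0.05, 17 were higher and 1, Pola2, lower, where 15.2% and 14.3% of all genes were. The median log2 fold change was 0.22 over the members and 0.00 over all genes. The libraries did not overlap in 21 members with Zscan4f higher and in 1 with Zscan4f lower, compared with 18.3% and 16.5% of all genes. Called against both other groups were 7 members, and 30 were called in no comparison. The comparisons share the Zscan4f libraries, so they are not independent. The count of 8 was 5 without Zscan4f replicate 1 and 5 without Zscan4f replicate 3.

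Zscan4f3A against control gave 0 called members in limma, and only 0.0189% of all genes were called higher and 0.0126% lower. At an unadjusted p under 0.05, 1 member was higher (Pold1) and 1 lower (Mcm7), where 3.80% and 4.97% of all genes were. The libraries did not overlap in 5 members with Zscan4f3A higher (Mcm3, Gins1, Rfc5, Pold1 and Tk1) and in 4 with Zscan4f3A lower (Mcm7, Rfc3, Prim1 and Rpa3), compared with 6.29% and 9.09% of all genes. The median log2 fold change was -0.02 over the members and -0.01 over all genes, and members split into 17 above 0 and 24 below. Over the 41 members the intervals of 95% for this change reached 0.23 to either side of the estimate at the median, and lay between -0.57 and 0.62. For Rrm2 and Lig1 the change seen with Zscan4f lay outside the interval of the same gene with Zscan4f3A, -0.12 to 0.21 and -0.11 to 0.23. Of the members called against control, it did so too for Mcm2, Mcm4, Gins4, Pcna, Rrm1 and Tk1. It lay inside for Mcm3 (0.42, upper limit 0.46) and Gins1 (0.55, upper limit 0.57). Both changes share the control libraries, and this reading leaves out the error of the Zscan4f estimate. The members were also picked because their change with Zscan4f passed the test, which made a value outside the interval likely beforehand. Compared directly, Tk1 was not called between Zscan4f and Zscan4f3A (limma adjusted p = 0.060).

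**Figure D1:**
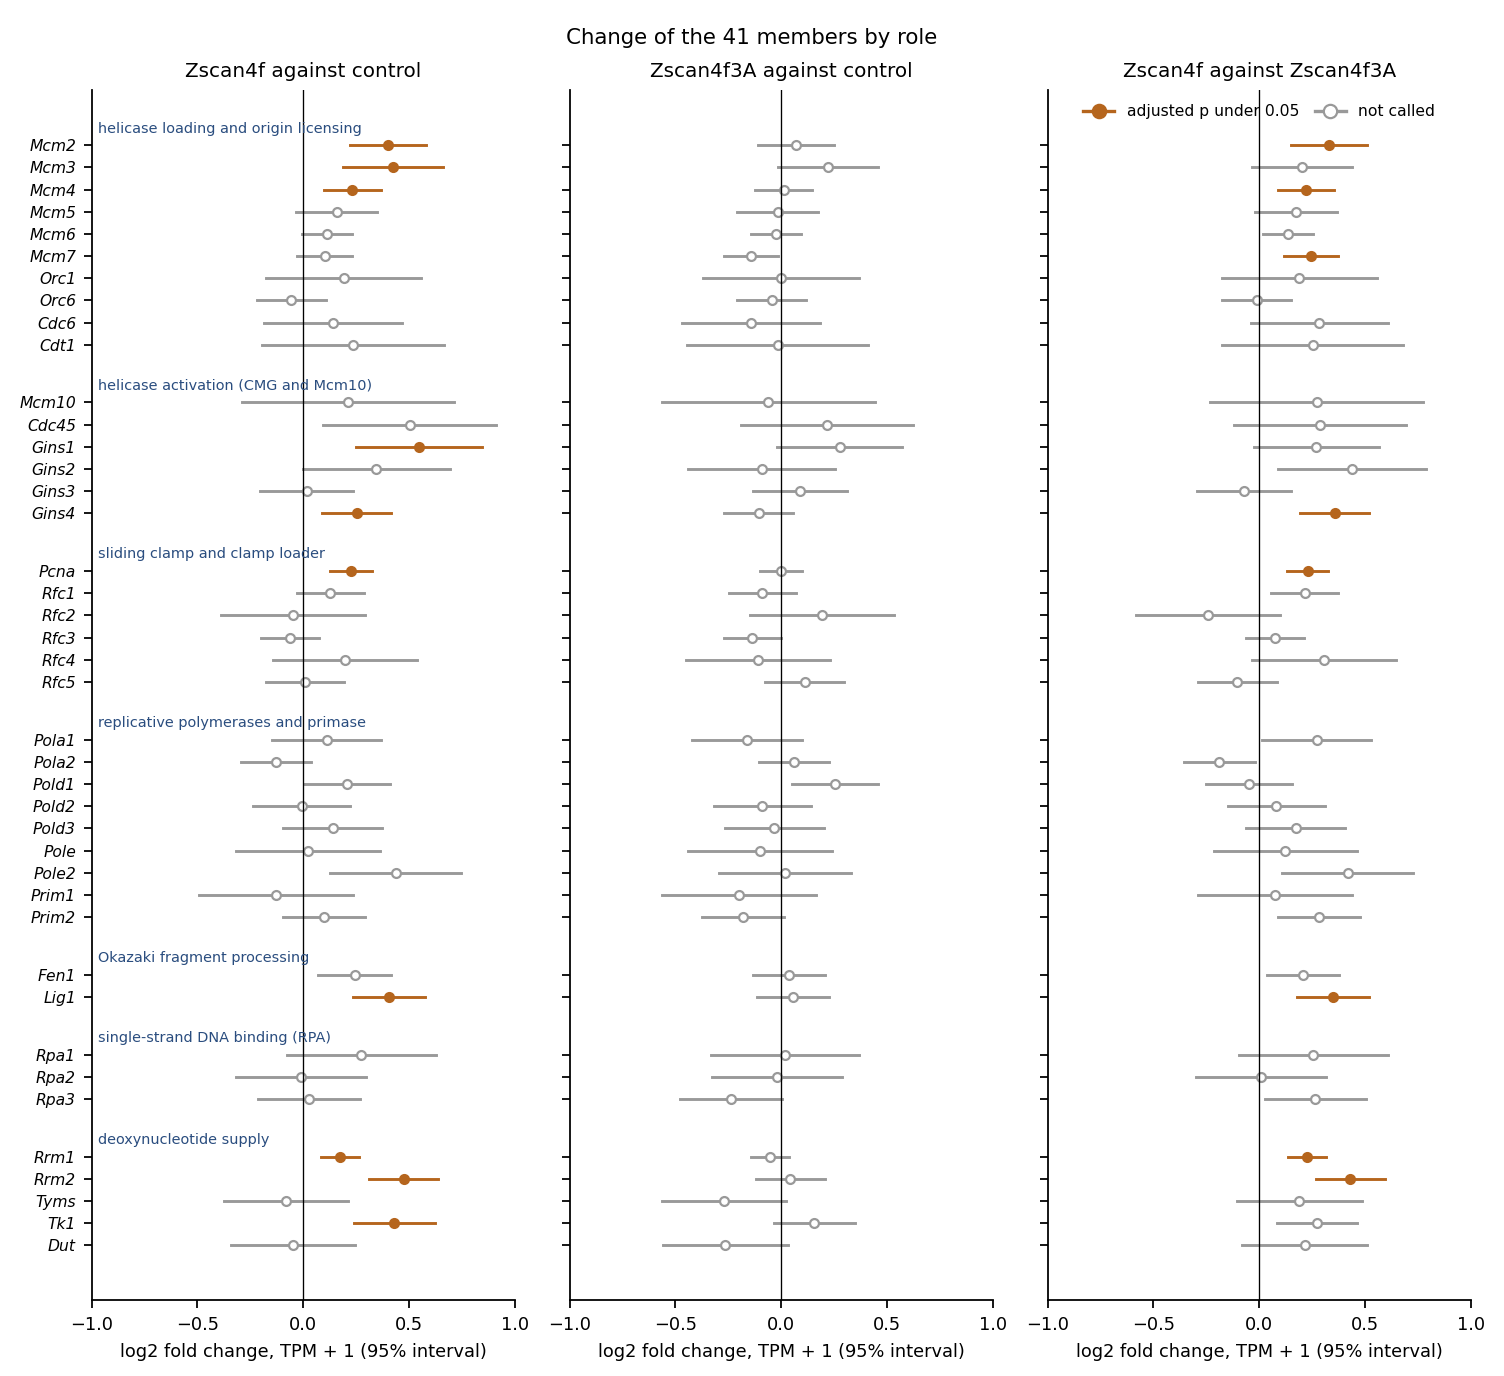
Log2 fold change of TPM + 1 (horizontal axis) with its interval of 95% for each of the 41 members, grouped by role, in 3 comparisons of 3 libraries against 3. Filled points mark an adjusted p under 0.05: 10 in Zscan4f against control, 0 in Zscan4f3A against control and 8 in Zscan4f against Zscan4f3A, all to the right of 0.

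Summed over the 41 members, the level was 902, 887 and 888 TPM in the Zscan4f libraries, 778, 760.2 and 776 TPM in the Zscan4f3A libraries, and 780.0, 789 and 786 TPM in the control libraries. The Zscan4f libraries lay above all others. The Zscan4f3A libraries lay below the control libraries only narrowly, with 778 TPM as their highest sum and 780.0 TPM as the lowest in control. The sums were not tested. Pcna alone made up the largest share of these sums, followed by Rrm1.

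The members differed widely in level. Averaged over the 9 libraries, the highest were Pcna at 116 TPM, Rrm1 at 70.0, Mcm7 at 47.1 and Orc6 at 45.5 TPM. The lowest were Cdc6 at 1.71 TPM, which loads the MCM ring, and Orc1 at 2.60 TPM, the largest subunit of the origin recognition complex. Proteins that sit in 1 complex in equal number did not have equal RNA levels. Within GINS the levels ran from 4.20 TPM for Gins1 over 5.24 for Gins3 and 13.2 for Gins2 to 35.5 TPM for Gins4. Among the MCM subunits they ran from 13.98 TPM for Mcm3 to 47.1 TPM for Mcm7. The clamp loader subunits Rfc1 to Rfc5 lay between 10.2 and 26.3 TPM. Within a group, the SD over 3 libraries was a median of 7.54% of the mean with Zscan4f, 7.86% with Zscan4f3A and 7.41% in control.

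**Figure D2:**
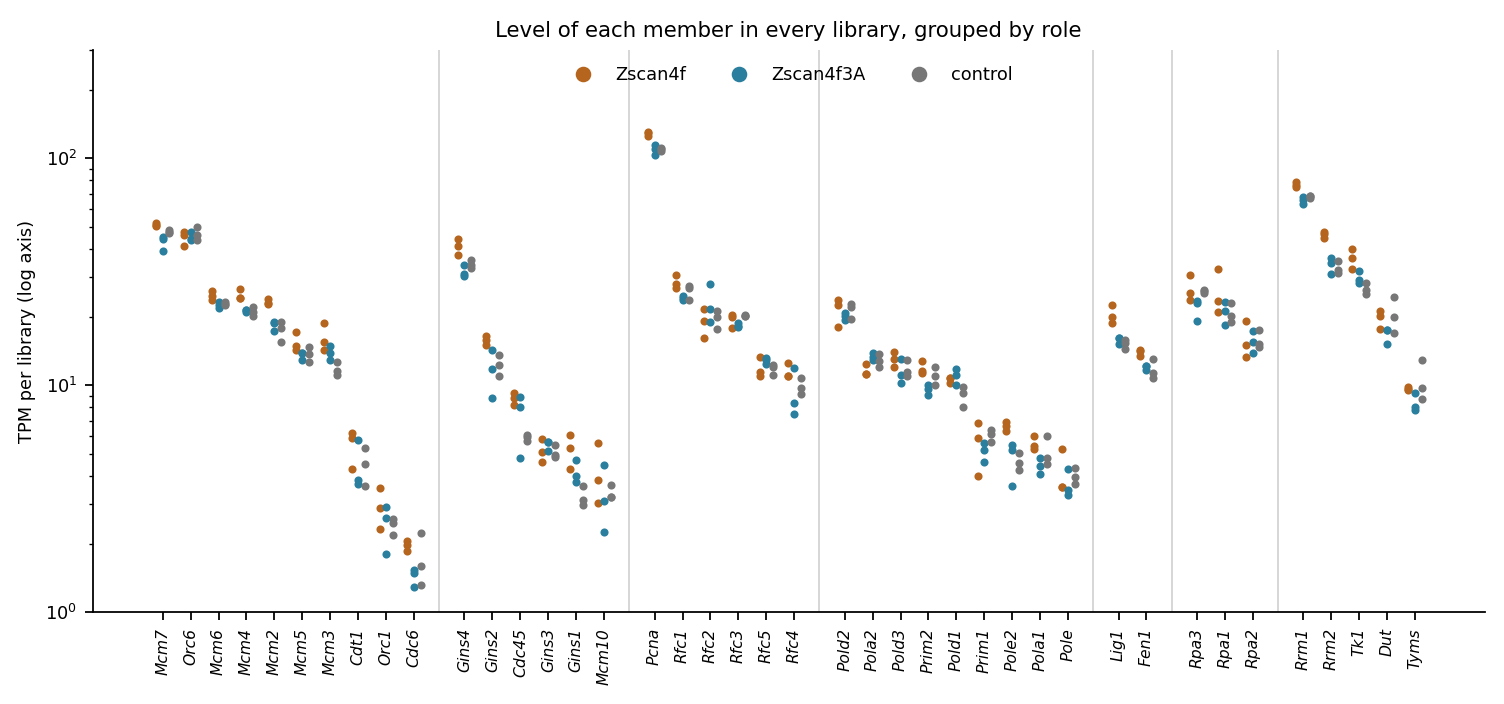
TPM of each member in each of the 9 libraries (log axis), grouped by role and ordered by level within a role; each point is 1 library. Levels run from 1.29 TPM for Cdc6 to 131 TPM for Pcna, and for Pcna, Rrm1 and Rrm2 the 3 Zscan4f points lie above the other 6.

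The MCM helicase was the first group. Mcm2, Mcm3 and Mcm4 rose with Zscan4f, and Mcm7 was higher with Zscan4f than with Zscan4f3A. Mcm2 (ENSMUSG00000002870.8, chromosome 6, 88883474 to 88898780) stood at 23.2, 22.8 and 24.1 TPM with Zscan4f, at 18.8, 19.0 and 17.3 TPM with Zscan4f3A, and at 19.1, 18.0 and 15.5 TPM in control. All Zscan4f libraries lay above all others, and the other groups overlapped. For Mcm2 the log2 fold change was 0.40 (SE 0.08, limma adjusted p = 0.0084) against control and 0.33 (SE 0.08, adjusted p = 0.025) against Zscan4f3A. The call against Zscan4f3A was lost without any 1 of the 3 Zscan4f libraries or without Zscan4f3A replicate 1 or 3, with adjusted p from 0.0515 to 0.0838.

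Mcm3 (ENSMUSG00000041859.10, chromosome 1, 20802968 to 20820312) stood at 15.5, 18.8 and 14.3 TPM with Zscan4f, at 14.9, 12.9 and 13.9 TPM with Zscan4f3A, and at 11.6, 11.2 and 12.7 TPM in control. The Zscan4f3A libraries lay between the other groups and overlapped with Zscan4f. Mcm3 had a log2 fold change of 0.42 (SE 0.10, limma adjusted p = 0.022) for Zscan4f against control and of 0.20 (SE 0.10, adjusted p = 0.23) for Zscan4f against Zscan4f3A. Without control replicate 1, control replicate 2 or Zscan4f replicate 2 the first call was lost, at adjusted p of 0.0669, 0.0754 and 0.0545, as it was without a filter on low values (0.0511).

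Mcm4 (ENSMUSG00000022673.5, chromosome 16, 15623897 to 15637400) stood at 26.6, 24.3 and 24.3 TPM with Zscan4f, at 21.1, 21.4 and 21.6 TPM with Zscan4f3A, and at 20.1, 21.2 and 22.2 TPM in control. Mcm4 had log2 fold changes of 0.23 (SE 0.06, limma adjusted p = 0.025) against control and 0.22 (SE 0.06, adjusted p = 0.036) against Zscan4f3A. Both calls were lost when certain single libraries were left out, while the size of the change varied little. Over all alternatives the log2 fold change was 0.19 to 0.27 against control and 0.18 to 0.24 against Zscan4f3A. The call against control was lost without control replicate 1, control replicate 2 or Zscan4f replicate 1, at adjusted p of 0.0839, 0.0674 and 0.0788. The call against Zscan4f3A was lost without control replicate 2 or any 1 of the 6 libraries compared, at adjusted p from 0.0562 to 0.110, and in a fit of the 2 groups alone (0.0617).

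Mcm7 (ENSMUSG00000029730.16, chromosome 5, 138164583 to 138172422) stood at 50.7, 50.3 and 51.9 TPM with Zscan4f, at 45.2, 39.2 and 44.3 TPM with Zscan4f3A, and at 47.3, 46.7 and 48.2 TPM in control. Here the 3 groups did not overlap, with control between the overexpression groups. In log2 terms the change was 0.24 (SE 0.06, limma adjusted p = 0.021) for Zscan4f against Zscan4f3A, 0.10 (SE 0.06, adjusted p = 0.27) for Zscan4f against control and -0.14 (SE 0.06, adjusted p = 0.53) for Zscan4f3A against control. Without Zscan4f replicate 1, 2 or 3 the call against Zscan4f3A was lost, at adjusted p of 0.0574, 0.0537 and 0.0733, as it was in a fit of the 2 groups alone (0.0588). Of the exonic bases of Mcm7, 12.6% overlap with other annotated genes.

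The remaining MCM subunits, Mcm5 and Mcm6, did not pass the test. Mcm5 had 14.4, 17.2 and 14.9 TPM with Zscan4f, 13.9, 12.9 and 13.9 TPM with Zscan4f3A, and 14.8, 12.7 and 13.7 TPM in control, with overlap between Zscan4f and control. Mcm6 had 24.8, 23.8 and 26.03 TPM with Zscan4f, 23.2, 21.9 and 22.6 TPM with Zscan4f3A, and 23.3, 22.7 and 22.8 TPM in control. Its Zscan4f libraries lay above all others, with a log2 fold change against control of 0.11 (interval of 95% -0.00 to 0.23, limma adjusted p = 0.17). The loaders of the ring were not called in any comparison: Cdt1 averaged 5.43 ± 0.997 TPM with Zscan4f, 4.43 ± 1.15 with Zscan4f3A and 4.46 ± 0.852 in control (SD, n = 3 each). Cdc6, Orc1 and Orc6, the smallest subunit of the origin recognition complex, had log2 fold changes with Zscan4f against control of 0.14, 0.19 and -0.06 (SE 0.14, 0.16 and 0.07).

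The promoters of the members were read for words known from E2F sites, since many of these genes are known E2F targets. The 300 bases around the RefSeq start site (GRCm38.p6) are given for Mcm3, which rose with Zscan4f and holds such words, for Mcm6, which holds the most and was not called, and for Rrm2, which had the smallest p of all members and holds none. Capitals mark the words TTTCCCGC, TTTGGCGC, TTTCGCGC and TTTGCCGC, and also CCAAT, the core of NF-Y sites, on either strand; words may overlap, as in Mcm6.
Mcm3, chr1:20820263-20820562, minus strand: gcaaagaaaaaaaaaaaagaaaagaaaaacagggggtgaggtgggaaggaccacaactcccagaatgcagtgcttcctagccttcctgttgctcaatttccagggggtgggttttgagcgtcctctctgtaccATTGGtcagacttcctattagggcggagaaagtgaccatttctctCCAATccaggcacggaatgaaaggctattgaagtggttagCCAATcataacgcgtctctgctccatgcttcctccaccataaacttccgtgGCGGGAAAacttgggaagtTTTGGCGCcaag
Mcm6, chr1:128359656-128359955, minus strand: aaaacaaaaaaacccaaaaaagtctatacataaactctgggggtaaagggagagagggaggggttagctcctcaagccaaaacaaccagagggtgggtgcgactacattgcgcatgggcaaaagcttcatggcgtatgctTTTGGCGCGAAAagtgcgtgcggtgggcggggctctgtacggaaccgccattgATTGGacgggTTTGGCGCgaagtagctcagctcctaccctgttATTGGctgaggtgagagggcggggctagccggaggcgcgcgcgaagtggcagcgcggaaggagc
Rrm2, chr12:24708004-24708303, plus strand: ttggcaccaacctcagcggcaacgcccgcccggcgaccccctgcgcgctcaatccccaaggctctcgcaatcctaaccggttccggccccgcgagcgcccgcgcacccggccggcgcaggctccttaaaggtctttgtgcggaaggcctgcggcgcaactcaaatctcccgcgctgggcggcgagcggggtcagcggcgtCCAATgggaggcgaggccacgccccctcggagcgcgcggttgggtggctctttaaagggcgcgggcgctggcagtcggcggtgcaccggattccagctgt
Promoters were found for 34 of the 41 members, 39 in all. Of these, 14 (35.9%) held at least 1 of the 4 E2F words, compared with 744 of all 32851 promoters in the table (2.26%). Counted by gene, 3 of the 8 members called in at least 1 comparison that had a promoter held one, and 11 of 26 other members. Counted by promoter, these were 3 of 11 (27.3%) and 11 of 28 (39.3%). The called members Lig1 and Mcm7 had more than 1 promoter each, and no promoter was found for the called Mcm4, Gins1 and Gins4. CCAAT was found in 22 of the 39 (56.4%) and in 37.4% of all promoters. Because many members are known E2F targets, a higher share of E2F words was likely before the data were seen. The set of all promoters was not matched to the members in base composition. The words describe these windows and do not test binding. The Rrm2 window held none of these 4 words, and regulation of Rrm2 by E2F factors was not tested.

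Of the factors that activate the helicase, Gins1 and Gins4 rose with Zscan4f. Gins4 (ENSMUSG00000031546.6, chromosome 8, 23226616 to 23237659), a subunit of the GINS complex, stood at 41.2, 37.4 and 44.1 TPM with Zscan4f, at 33.8, 30.2 and 30.9 TPM with Zscan4f3A, and at 33.9, 35.6 and 32.8 TPM in control. The Zscan4f libraries lay above all others. The log2 fold change was 0.36 (SE 0.07, limma adjusted p = 0.011) against Zscan4f3A and 0.25 (SE 0.07, adjusted p = 0.040) against control. The call against control was lost without control replicate 1, 2 or 3, Zscan4f replicate 1 or 3, or Zscan4f3A replicate 2, at adjusted p from 0.0501 to 0.126, and also without a filter on low values (0.0785) and without a variance trend (0.0551).

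Gins1 (ENSMUSG00000027454.10, chromosome 2, 150905400 to 150931280) stood at 6.04, 5.32 and 4.30 TPM with Zscan4f, at 4.68, 3.76 and 3.97 TPM with Zscan4f3A, and at 3.59, 2.98 and 3.13 TPM in control. The Zscan4f3A libraries all lay above control and overlapped with Zscan4f. Its log2 fold change of 0.55 (SE 0.13, limma adjusted p = 0.019) with Zscan4f against control was the largest of the 41. Without control replicate 2 or 3, or Zscan4f replicate 1 or 2, this call was lost, at adjusted p from 0.0605 to 0.0674, as it was without a filter on low values (0.0572). Against Zscan4f3A the value was 0.27 (adjusted p = 0.21).

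Cdc45, which joins MCM and GINS in the active helicase, had 8.85, 9.31 and 8.20 TPM with Zscan4f, 8.86, 8.02 and 4.78 TPM with Zscan4f3A, and 5.92, 6.05 and 5.71 TPM in control. The Zscan4f3A libraries spread across both other groups, and the lowest of them, replicate 3, had the least sequence. Whether depth has a part in this value was not tested. The log2 fold change with Zscan4f against control was 0.50 (SE 0.18, limma adjusted p = 0.089). Gins2 averaged 15.8 ± 0.788 TPM with Zscan4f, 11.6 ± 2.77 with Zscan4f3A and 12.3 ± 1.32 in control (SD, n = 3 each) and was not called, and 67.3% of its exonic bases overlap with Gse1 on the other strand. Gins3 and Mcm10 were also not called, at log2 fold changes with Zscan4f against control of 0.02 and 0.21 (SE 0.10 and 0.22).

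In the clamp and clamp loader group the clamp alone was called. Pcna (ENSMUSG00000027342.14, chromosome 2, 132249162 to 132253314), the ring that holds polymerases on DNA, stood at 129, 126 and 131 TPM with Zscan4f, at 109.8, 104 and 115 TPM with Zscan4f3A, and at 111, 107 and 110.3 TPM in control. All Zscan4f libraries lay above all others, and the other groups overlapped. The log2 fold change was 0.23 (SE 0.04, limma adjusted p = 0.0073) against control and 0.23 (SE 0.04, adjusted p = 0.0087) against Zscan4f3A. The processed copy Pcna-ps2 stood at 14.6, 16.1 and 15.1 TPM with Zscan4f, at 12.9, 12.6 and 13.3 TPM with Zscan4f3A, and at 13.7, 12.3 and 10.4 TPM in control. For Pcna-ps2 the log2 fold change with Zscan4f was 0.32 (limma adjusted p = 0.049) against control and 0.22 (adjusted p = 0.15) against Zscan4f3A. Reads that fit both loci could have been assigned to either, so the split between them is uncertain.

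The loader subunits Rfc1 to Rfc5, which open the clamp and place it on DNA, had log2 fold changes from -0.06 (Rfc3) to 0.20 (Rfc4) with Zscan4f against control, and 0 of these 5 passed the limma test in any comparison; at an unadjusted p under 0.05, 1 did, in Zscan4f against Zscan4f3A. This was Rfc1, the largest subunit, with 30.6, 26.8 and 28.1 TPM with Zscan4f and 23.9, 24.4 and 24.7 TPM with Zscan4f3A, a log2 difference of 0.22 (SE 0.07, adjusted p = 0.072). Control had 23.8, 27.3 and 26.8 TPM and overlapped with Zscan4f. Rfc2 spread widely within Zscan4f3A, at 21.7, 19.0 and 27.9 TPM.

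Of the 9 polymerase and primase genes, 0 were called in the 3 comparisons by limma. At an unadjusted p under 0.05, 2 were higher with Zscan4f than in control, and 3 were higher and 1 lower with Zscan4f than with Zscan4f3A. Their median log2 fold change with Zscan4f against control was 0.10, with a range from -0.13 for Pola2, the regulatory subunit of polymerase alpha, to 0.44 for Pole2, a subunit of polymerase epsilon. Pole2 stood at 6.29, 6.94 and 6.63 TPM with Zscan4f, at 5.19, 5.49 and 3.60 TPM with Zscan4f3A, and at 4.57, 5.06 and 4.26 TPM in control. Its Zscan4f libraries lay above all others, and the test missed the threshold at adjusted p = 0.057 against control and 0.075 against Zscan4f3A. Pole, the catalytic subunit of the same polymerase, averaged 4.13 ± 0.976 TPM with Zscan4f, 3.67 ± 0.536 with Zscan4f3A and 3.99 ± 0.324 in control (SD, n = 3 each). Pold1, the catalytic subunit of polymerase delta, had 10.2, 10.7 and 10.8 TPM with Zscan4f, 11.8, 10.0 and 11.1 TPM with Zscan4f3A, and 9.81, 9.27 and 8.06 TPM in control. Both overexpression groups lay above control, with log2 fold changes of 0.21 (SE 0.09, adjusted p = 0.15) for Zscan4f and 0.26 (SE 0.09, adjusted p = 0.48) for Zscan4f3A. Pola2 was the only member whose Zscan4f libraries all lay below those of Zscan4f3A, with 11.3, 12.5 and 11.3 TPM with Zscan4f and 13.4, 13.9 and 12.9 TPM with Zscan4f3A (adjusted p = 0.12). The primase subunits Prim1 and Prim2 had log2 fold changes with Zscan4f against control of -0.13 and 0.10 (SE 0.16 and 0.08).

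Of the genes that finish Okazaki fragments, Lig1 rose. Lig1 (ENSMUSG00000056394.17, chromosome 7, 13277283 to 13311433), the ligase that seals the fragments, stood at 18.9, 20.1 and 22.5 TPM with Zscan4f, at 16.1, 15.2 and 16.2 TPM with Zscan4f3A, and at 14.4, 15.4 and 15.8 TPM in control. Every Zscan4f library lay above every other library. Lig1 had log2 fold changes of 0.40 (SE 0.07, limma adjusted p = 0.0062) against control and 0.35 (SE 0.07, adjusted p = 0.015) against Zscan4f3A, and the second was at adjusted p = 0.0529 without Zscan4f3A replicate 2. Fen1, the flap nuclease that acts before the ligase, had 14.2, 13.5 and 14.3 TPM with Zscan4f, 11.7, 12.1 and 12.2 TPM with Zscan4f3A, and 10.8, 13.0 and 11.3 TPM in control. Its adjusted p was 0.056 against control. Of the exonic bases of Fen1, 84.2% overlap with genes on the other strand, among them Tmem258, and counting by strand is not stated, so the reads of these genes cannot be told apart.

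The RPA subunits, which coat single-stranded DNA, were not called by limma. At an unadjusted p under 0.05, 1 of the 3, Rpa3, was higher with Zscan4f than with Zscan4f3A. Its log2 difference there was 0.27 (SE 0.11, limma adjusted p = 0.13). The Zscan4f3A libraries of Rpa3 all lay below control (log2 fold change -0.24, adjusted p = 0.57). Rpa1 had 32.4, 23.5 and 21.2 TPM with Zscan4f, 23.4, 21.4 and 18.5 TPM with Zscan4f3A, and 20.3, 23.0 and 19.0 TPM in control, so that 1 library of the Zscan4f group stood apart. Rpa2 had a log2 fold change of -0.01 (SE 0.13) and Rpa3 of 0.03 (SE 0.11) with Zscan4f against control.

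In deoxynucleotide supply, the subunits of ribonucleotide reductase and thymidine kinase were called higher with Zscan4f against control. Thymidylate synthase and dUTPase were not called in any comparison. Rrm2 (ENSMUSG00000020649.11, chromosome 12, 24708241 to 24714146), the small subunit of ribonucleotide reductase that is made in S phase, stood at 47.5, 46.6 and 44.6 TPM with Zscan4f, at 34.7, 36.5 and 31.1 TPM with Zscan4f3A, and at 32.3, 31.2 and 35.4 TPM in control. All Zscan4f libraries lay above all others, and the other groups overlapped. Its log2 fold change was 0.48 (SE 0.07, limma adjusted p = 0.0021) against control and 0.43 (SE 0.07, adjusted p = 0.0045) against Zscan4f3A. The processed copy Rrm2-ps1 was listed at 0 in all 9 libraries.

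Rrm1 (ENSMUSG00000030978.10, chromosome 7, 102441695 to 102469771), the large subunit, stood at 78.4, 76.5 and 75.1 TPM with Zscan4f, at 65.3, 67.8 and 63.2 TPM with Zscan4f3A, and at 68.2, 67.2 and 68.2 TPM in control. The change was smaller than that of Rrm2 but the libraries were also apart, with a log2 fold change of 0.17 (SE 0.04, limma adjusted p = 0.017) against control and 0.23 (SE 0.04, adjusted p = 0.0059) against Zscan4f3A. Without control replicate 2 or Zscan4f replicate 1 the call against control was lost, at adjusted p of 0.0558 and 0.0577. Tk1 (ENSMUSG00000025574.13, chromosome 11, 117815526 to 117826092), which salvages thymidine, stood at 40.03, 32.6 and 36.4 TPM with Zscan4f, at 31.9, 28.3 and 29.2 TPM with Zscan4f3A, and at 28.3, 25.3 and 26.3 TPM in control. The groups formed steps without overlap, the Zscan4f3A libraries lying between. The log2 change of Tk1 was 0.43 (SE 0.08, adjusted p = 0.0077) for Zscan4f against control, 0.16 (SE 0.08, adjusted p = 0.61) for Zscan4f3A against control and 0.27 (SE 0.08, adjusted p = 0.060) for Zscan4f against Zscan4f3A.

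Tyms, which makes dTMP, had 9.64, 9.89 and 9.54 TPM with Zscan4f, 8.07, 9.30 and 7.81 TPM with Zscan4f3A, and 12.9, 8.72 and 9.72 TPM in control. The control libraries spanned the Zscan4f range, and the log2 fold change against control was -0.08 (interval of 95% -0.38 to 0.21, limma adjusted p = 0.74). Dut, which removes dUTP, averaged 19.7 ± 1.88 TPM with Zscan4f, 16.8 ± 1.32 with Zscan4f3A and 20.6 ± 3.81 in control (SD, n = 3 each). Its log2 fold change was -0.05 (SE 0.13) with Zscan4f against control. Against Zscan4f3A, all Zscan4f libraries of Tyms and of Dut lay above, an order that 18.3% of all genes showed. The log2 differences were 0.19 for Tyms and 0.22 for Dut (limma adjusted p = 0.37 and 0.31).

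**Figure D3:**
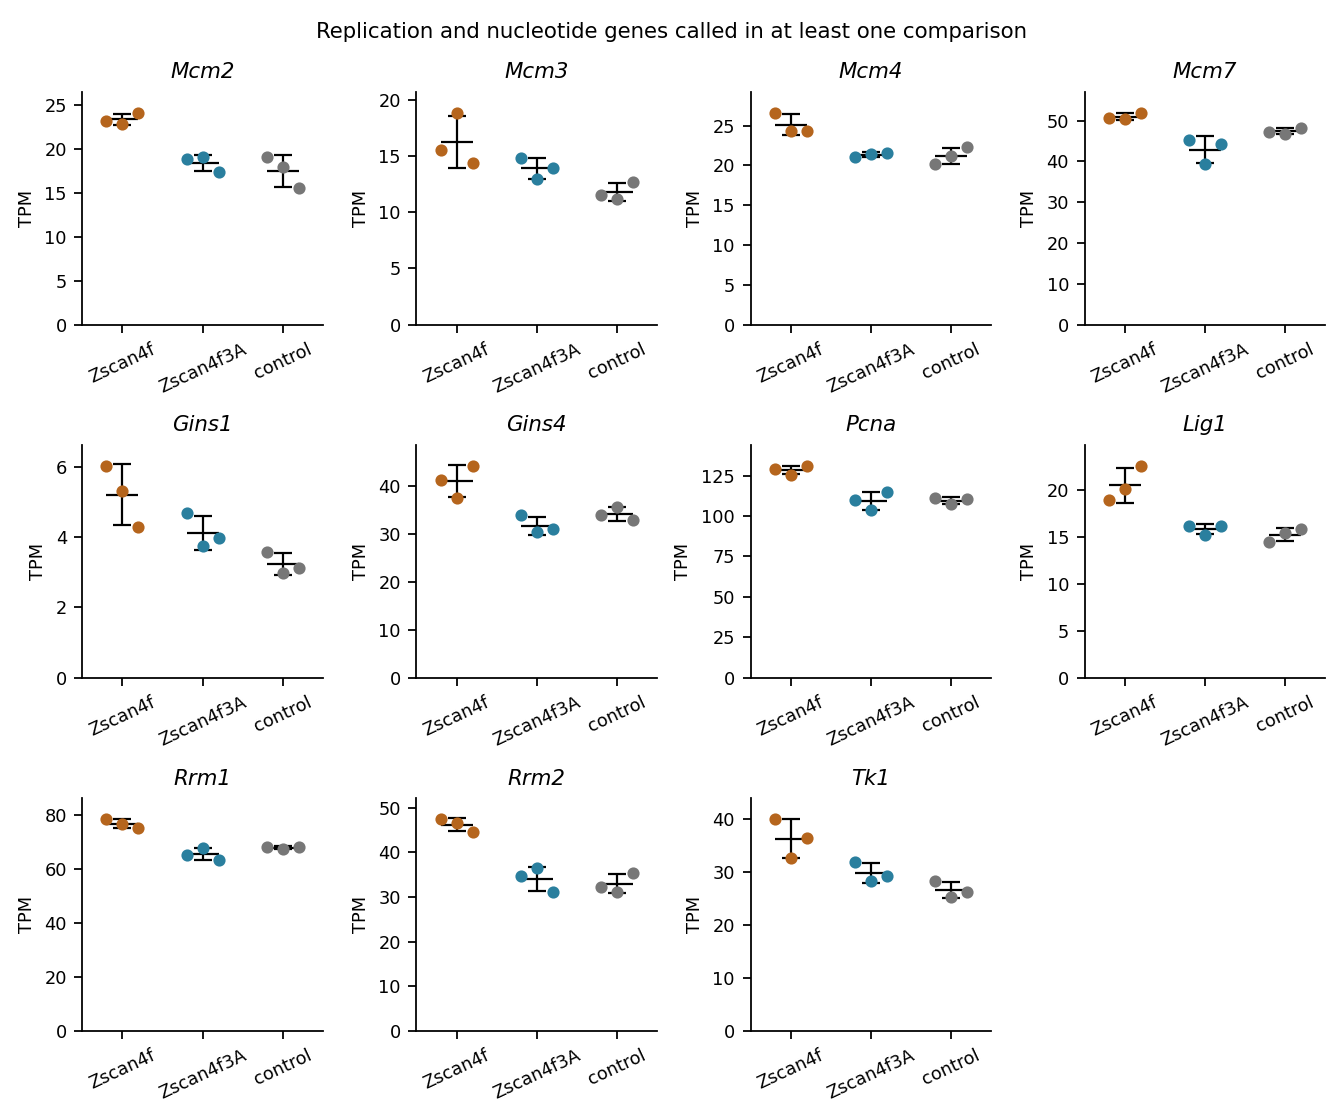
TPM in each library (points) of the 11 members called in at least 1 comparison, with the mean and SD of 3 libraries per group (bars); axes start at 0. The Zscan4f points lie above all control points in each panel, and the Zscan4f3A points lie between the groups for Tk1, overlap with Zscan4f for Gins1 and Mcm3, and lie below control for Mcm7.

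Precision differed with level. Among the 20 members above the median level of 13.98 TPM, the median SE of the log2 fold change was 0.07 and 8 were called with Zscan4f against control. Among the 21 at or below it, the median SE was 0.13 and 2 were called, while the median log2 fold change was 0.19, compared with 0.14 in the upper group. For Mcm10 and Cdc6, low in level, the interval of 95% for Zscan4f against control ran from -0.29 to 0.71 and from -0.18 to 0.47, and a member not called is not shown to be unchanged.

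**Figure D4:**
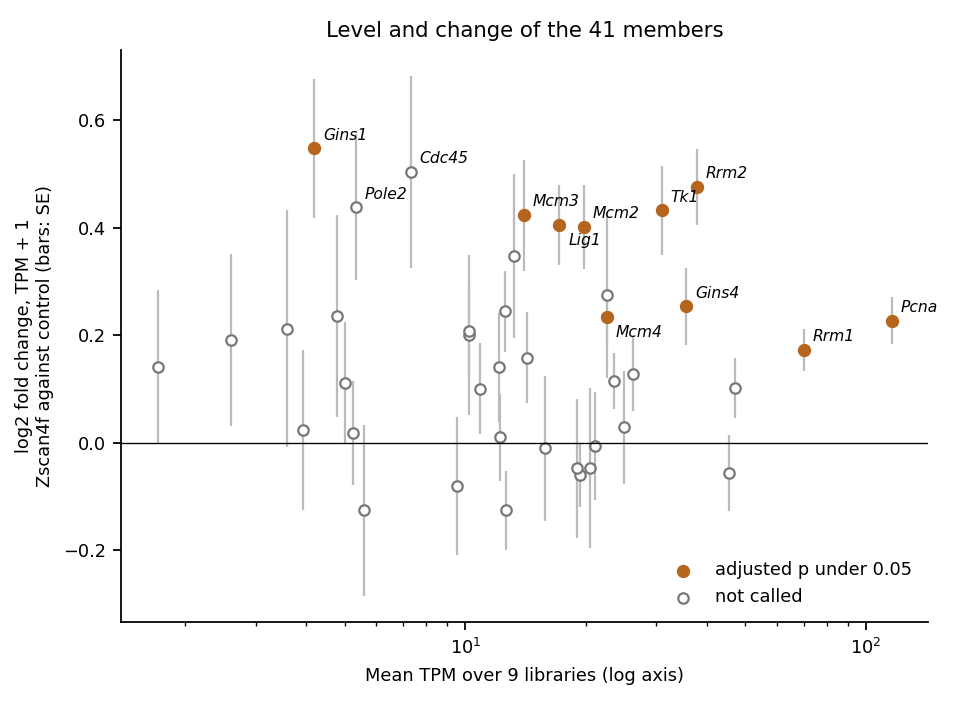
Mean TPM over 9 libraries (log axis) against the log2 fold change of Zscan4f against control for the 41 members, with SE bars; filled points have an adjusted p under 0.05. Of the 21 less abundant members, which include Gins1, Cdc45 and Pole2, 2 are called, and of the 20 more abundant ones 8.

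Other genes of the same pathways were read from 4 lists. Of 40 gene IDs of other replication factors, 6 rose with Zscan4f against control and 0 fell, with a median log2 fold change of 0.12. Over all genes in that comparison 8.74% were called higher and 9.71% lower. Cdc7, the kinase that triggers origin firing, averaged 10.2 ± 0.624 TPM with Zscan4f, 6.96 ± 0.690 with Zscan4f3A and 6.63 ± 0.375 in control (SD, n = 3 each), a log2 fold change of 0.56 (limma adjusted p = 0.0031) against control. Gmnn, which encodes geminin, the inhibitor of Cdt1, averaged 17.4 ± 1.12 TPM with Zscan4f, 11.8 ± 1.22 TPM with Zscan4f3A and 11.8 ± 1.44 TPM in control, a log2 fold change of 0.52 (adjusted p = 0.0082). The count of 6 in this list depended on single libraries: it was 3 without control replicate 1 or Zscan4f replicate 2, and 2 of 40 without control replicate 3 or Zscan4f replicate 1.

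Of 37 other genes of nucleotide synthesis and salvage, 9 rose with Zscan4f against control and 2 fell (8.74% and 9.71% over all genes), with a median of 0.12. Umps, which makes UMP, averaged 82.3 ± 1.46 TPM with Zscan4f, 58.4 ± 2.83 with Zscan4f3A and 56.1 ± 0.362 in control (SD, n = 3 each), a log2 fold change of 0.54 (limma adjusted p = 7.8e-05). Uck2, a uridine and cytidine kinase, averaged 44.5 ± 1.20 TPM with Zscan4f, 31.9 ± 1.05 with Zscan4f3A and 32.9 ± 0.298 in control (0.42, adjusted p = 3.2e-04). Samhd1, which breaks down deoxynucleotides, fell to 42.6 ± 1.31 TPM with Zscan4f, against 58.2 ± 0.770 with Zscan4f3A and 60.5 ± 2.40 in control, a log2 fold change of -0.50 (adjusted p = 1.5e-04). The other gene that fell was Rrm2b, the ribonucleotide reductase subunit known as a p53 target, with 13.7 ± 0.277 TPM with Zscan4f, 14.9 ± 0.494 with Zscan4f3A and 16.2 ± 0.353 in control (adjusted p = 0.019).

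The 31 regulators of the G1 to S transition had 2 genes that rose with Zscan4f against control and 4 that fell, near the 8.74% and 9.71% of all genes, with a median log2 fold change of 0.03. E2f2 rose to 5.10 ± 0.486 TPM with Zscan4f, against 2.69 ± 0.308 with Zscan4f3A and 2.54 ± 0.290 in control (SD, n = 3 each; log2 fold change 0.79, limma adjusted p = 0.0018). E2f5, the other gene that rose, had a log2 fold change of 0.39 (limma adjusted p = 0.017). The D cyclin genes Ccnd2 and Ccnd1, partners of Cdk4 and Cdk6, fell by 0.60 and 0.23 on the log2 scale (adjusted p = 3.9e-06 and 6.9e-04). Ccnd2 averaged 296 ± 6.04 TPM with Zscan4f, 411 ± 3.70 with Zscan4f3A and 449 ± 4.21 in control. Cdkn1a, the inhibitor p21, averaged 791 ± 22.3 TPM with Zscan4f, 954 ± 8.16 with Zscan4f3A and 935 ± 29.9 in control (-0.24, adjusted p = 0.0013). Cdkn2a fell as well (-0.20, adjusted p = 0.027). E2f1 had 17.8, 17.6 and 17.5 TPM with Zscan4f, 18.3, 18.1 and 16.2 TPM with Zscan4f3A, and 17.0, 17.6 and 17.2 TPM in control, and was not called (adjusted p = 0.78).

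In the list of G2/M genes, 5 of 23 gene IDs rose with Zscan4f against control and 0 fell (8.74% and 9.71% over all genes), with a median log2 fold change of 0.19. Ccnf, cyclin F, averaged 8.33 ± 0.137 TPM with Zscan4f, 6.09 ± 0.396 with Zscan4f3A and 5.36 ± 0.178 in control (SD, n = 3 each; log2 fold change 0.55, limma adjusted p = 0.0012). Cdc20, an activator of the anaphase promoting complex, averaged 36.2 ± 1.497 TPM with Zscan4f, 31.2 ± 0.615 with Zscan4f3A and 30.5 ± 0.847 in control (0.24, adjusted p = 0.010). The count of 5 was 3 without control replicate 1, control replicate 3 or Zscan4f replicate 1. Across the 4 lists, 0 of 131 gene IDs were called by limma with Zscan4f3A against control, where an unadjusted p under 0.05 gave 1 higher and 5 lower. With Zscan4f against Zscan4f3A, where 7.48% of all genes were called higher and 7.64% lower, 6 other replication factors were higher and 0 lower, and 10 genes of nucleotide synthesis and salvage were higher and 1 lower. In the same comparison 4 regulators of the G1 to S transition were higher and 5 lower, and 7 G2/M genes were higher and 0 lower. These calls, 33 in both directions, numbered 19 to 21 without any 1 of the 3 Zscan4f libraries or without Zscan4f3A replicate 1.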

How the data were processed

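RNA-seq of 9 libraries was aligned with HISAT2 2.1.0 and quantified per gene with StringTie, per the submitters' processing notes; no label or header used here names the StringTie version, the genome build or the annotation. The deposited TPM values were scaled by the authors per kilobase of transcript to the same sum in each library, per the file headers and values. The deposited FPKM values were scaled by the authors per kilobase and by library size, per the file headers. The deposited coverage signal is the mean read depth per gene without depth correction, and its commonest ratio to FPKM gave the gigabases aligned. The files hold no counts, so no counting interval could be given. Of 54079 gene IDs found in the GRCm38 annotation 97.7% had identical coordinates, so coordinates are given on GRCm38. Of the 36 library pairs, 0 held identical values.

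Low genes were dropped unless 3 or more libraries reached 1 TPM, which left 15837 genes and all 41 members, and log2(TPM + 1) was fitted with limma 3.58.1 in R 4.3.3 (3 group means, empirical Bayes with trend). Calls were made where the p-value, adjusted by Benjamini-Hochberg across the 15837 genes, was under 0.05; tests were two-sided. Fold changes are on the log2(TPM + 1) scale, which understates the change of low genes. The code was tested on simulated data. Values in every library are given for called members, the MCM subunits, Pcna, Tyms, Tk1 and Rrm1 by rule, and for further members chosen after their values were seen. Up to 6 called genes per other list and comparison, those with the smallest p, could be named, and fewer were; Rrm2b, E2f1 and the markers named were added after their values were seen. Members, lists and tests were chosen with earlier results of these data known. Each of these was varied in turn: the pseudocount (0.1), the filter (none, or 5 TPM), FPKM for TPM, median-of-ratios scaling, quantile normalization, no trend, a robust prior, the 2 groups alone, a replicate block and leaving out each library. Their use on the other lists was added after the data were seen. Overlap with other genes came from GENCODE M21, promoters from RefSeq (GRCm38.p6). Figures used Python 3.11.15 and matplotlib 3.10.9.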

Additional observations from a re-analysis of the deposited data

How the results depend on the processing

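The direction of every called member was kept under each alternative in which it passed the filter. Members higher with Zscan4f against control numbered 10 in the main analysis, 10 with a pseudocount of 0.1, with median-of-ratios scaling and with quantile normalization, 12 with FPKM, 7 without a filter and 13 in a fit of the 2 groups alone, and 6 to 12 when 1 library was left out. Members higher with Zscan4f against Zscan4f3A numbered 8, and 6 in a fit of the 2 groups alone, 9 with quantile normalization and 5 to 8 when 1 library was left out. Members lower with Zscan4f numbered 0 under each alternative in both comparisons, and members called with Zscan4f3A against control 0. Mcm2, Rrm2, Tk1, Pcna and Lig1 stayed called against control in all of the alternatives, and Rrm2, Pcna, Rrm1 and Gins4 did so against Zscan4f3A. Other calls lost outside the libraries left out were those of Gins1, Gins4 and Mcm3 without a filter (adjusted p = 0.0572, 0.0785 and 0.0511), Gins4 without a trend (0.0551), and Mcm4 and Mcm7 against Zscan4f3A in a fit of the 2 groups (0.0617 and 0.0588). The cause was not tested. Other replication factors called against control numbered 6, and 3 without a filter.

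The labels number the replicates alike in each group. Same-numbered libraries did not deviate together (correlations of deviations from the group means from -0.08 to 0.05). Such low values cannot show whether equal numbers share a culture, and no label says so. With the replicate number as a block, 7 members were higher with Zscan4f against control, 8 against Zscan4f3A, and 0 with Zscan4f3A against control; Mcm3, Mcm4 and Gins4 were not called against control (adjusted p = 0.0577, 0.0623 and 0.0737) nor Mcm4 against Zscan4f3A (0.0827), and other replication factors called against control numbered 2. The median log2 fold change of the members over all alternatives was 0.13 to 0.19 with Zscan4f against control, 0.19 to 0.24 against Zscan4f3A and -0.04 to 0.00 with Zscan4f3A against control.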
